A study of Mus musculus with 2 samples.

Results

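S100 proteins are small calcium-binding proteins, and 6 of their genes are described here over all cell classes of a sorted mouse thymus sample: S100a8, S100a9, S100a4, S100a6, S100a10 and S100a11. They were taken by symbol from the 32285 gene rows of the library made in 2021, in which all 6 were present. The study sorted CD64+ cells from enzymatically digested thymus of adult C57BL/6 mice and made 2 droplet libraries, 1 in 2021 and 1 in 2024, with no treatment or second genotype in the labels. CD64 is the high-affinity receptor for IgG and is typical of macrophages and monocytes, and the labels name the cells macrophages. The labels do not say how many animals gave cells to a library. A gene list was used for the 2021 library only, so every gene value below comes from 1 library and no test between samples was possible.

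S100A8 and S100A9 pair to form calprotectin, which binds zinc and manganese, makes up much of the cytosolic protein of neutrophils and acts as an alarmin through receptors such as TLR4 when it is released. S100A4 and S100A6 bind cytoskeletal and other partner proteins, S100A10 joins annexin A2 in a complex at the plasma membrane, and S100A11 binds annexin A1. In the thymus most cells are developing T cells, and myeloid cells that present antigen and clear dying thymocytes are a small share.

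All 6 genes lie on mouse chromosome 3. By RefSeq on GRCm38.p6, S100a8 spans chr3:90669071-90670034 on the plus strand and S100a9 spans chr3:90692630-90695721 on the minus strand. They are 22.6 kb apart, with 0 other coding genes between them. S100a4 (chr3:90603770-90606045) and S100a6 (chr3:90612894-90614414) lie upstream of S100a8 with 6.85 kb between them, and S100a5 sits in that gap. S100a11 (chr3:93520496-93526288) and S100a10 (chr3:93555117-93564645) form a second pair 28.8 kb apart, 2824.8 kb from S100a9. The promoters of the pair that dominates neutrophil-like cells are shown for comparison, as the 250 bases before each start (S100a8 at chr3:90668821-90669070, plus strand, and S100a9 at chr3:90695722-90695971, minus strand; RefSeq, GRCm38.p6). Capitals mark matches, on either strand, to the C/EBP letters TTNNGNAA, the ETS letters GAGGAAG and the TATA letters TATAAA; none of these matches overlapped another.
S100a8: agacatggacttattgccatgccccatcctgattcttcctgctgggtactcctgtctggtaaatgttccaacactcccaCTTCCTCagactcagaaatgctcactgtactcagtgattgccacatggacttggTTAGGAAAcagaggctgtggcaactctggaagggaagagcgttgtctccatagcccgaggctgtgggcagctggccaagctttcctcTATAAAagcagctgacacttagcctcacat
S100a9: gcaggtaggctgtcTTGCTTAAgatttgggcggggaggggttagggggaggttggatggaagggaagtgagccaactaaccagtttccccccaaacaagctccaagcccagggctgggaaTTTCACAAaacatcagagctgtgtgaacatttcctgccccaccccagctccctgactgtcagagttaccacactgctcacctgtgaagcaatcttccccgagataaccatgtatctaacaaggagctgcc

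The S100a8 window held 1 C/EBP match, 1 ETS match and 1 TATA match, the last at 30 to 25 bases before the start. The S100a9 window held 2 C/EBP matches and no match to the ETS or TATA letters. Among 32851 windows of the same length, 36.8% held a C/EBP match, 10.6% an ETS match and 12.4% a TATA match. S100a4 also held a TATA match, S100a6 held none of the motifs searched, and S100a11 held 2 matches to the AP-1 letters TGANTCA, which 6.75% of windows hold. These matches describe letters and say nothing about binding.

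The 2021 library had 3214 barcodes with 502 to 18653 UMIs (unique molecular identifiers, 1 per captured molecule; median 2157.5), and the 2024 library had 2815 barcodes with a median of 5312. After filters, 3184 cells of the 2021 library were kept in 12 clusters, which were made with all 17 S100 family rows left out and named from marker genes. The conventional dendritic cell (DC)-like class had 779 cells, the neutrophil-like class 506, the macrophage-like class 469, the monocyte-like class 435, the T lineage-like class 370, the NK and innate lymphoid cell (ILC)-like class 304 and the B lineage-like class 212. A dividing cluster of 109 cells stayed unnamed. The macrophage-like class, which the label names, thus held 14.7% of kept cells. Levels are given as CPM (a gene's UMIs scaled to 1000000 UMIs in all, over the same cells), with exact Poisson 95% intervals that cover counting error only.

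The 6 genes gave 538442 UMIs, 6.34% of all UMIs of kept cells. Neutrophil-like cells held 98.1% of the S100a8 UMIs and 98.3% of the S100a9 UMIs, although they gave 15.02% of all UMIs. The other 4 genes each followed their own order of classes. Of the 11 other family rows, 7 had a UMI, with 2721 UMIs in all, of which S100a13 gave 2188 and S100a1 gave 500. S100a3, S100a5, S100a7a, S100a14 and S100a2 had 15, 11, 4, 2 and 1 UMIs, and S100a16, S100b, S100z and S100g had 0.

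S100a8 stood at 195932 CPM (195165 to 196702) in neutrophil-like cells. The next classes were macrophage-like cells at 802 CPM and monocyte-like cells at 546 CPM. NK and ILC-like cells (235 CPM), B lineage-like cells (218 CPM) and T lineage-like cells (198 CPM) followed with overlapping intervals, and DC-like cells were lowest at 153 CPM. S100a9 reached 167246 CPM (166537 to 167957) in neutrophil-like cells. Its other classes were macrophage-like at 898 CPM, B lineage-like at 334 CPM, monocyte-like at 320 CPM, NK and ILC-like at 293 CPM, T lineage-like at 200 CPM and DC-like at 175 CPM. The unnamed dividing cluster stood between, at 3368 CPM of S100a8 and 1821 CPM of S100a9.

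**Figure D1:**
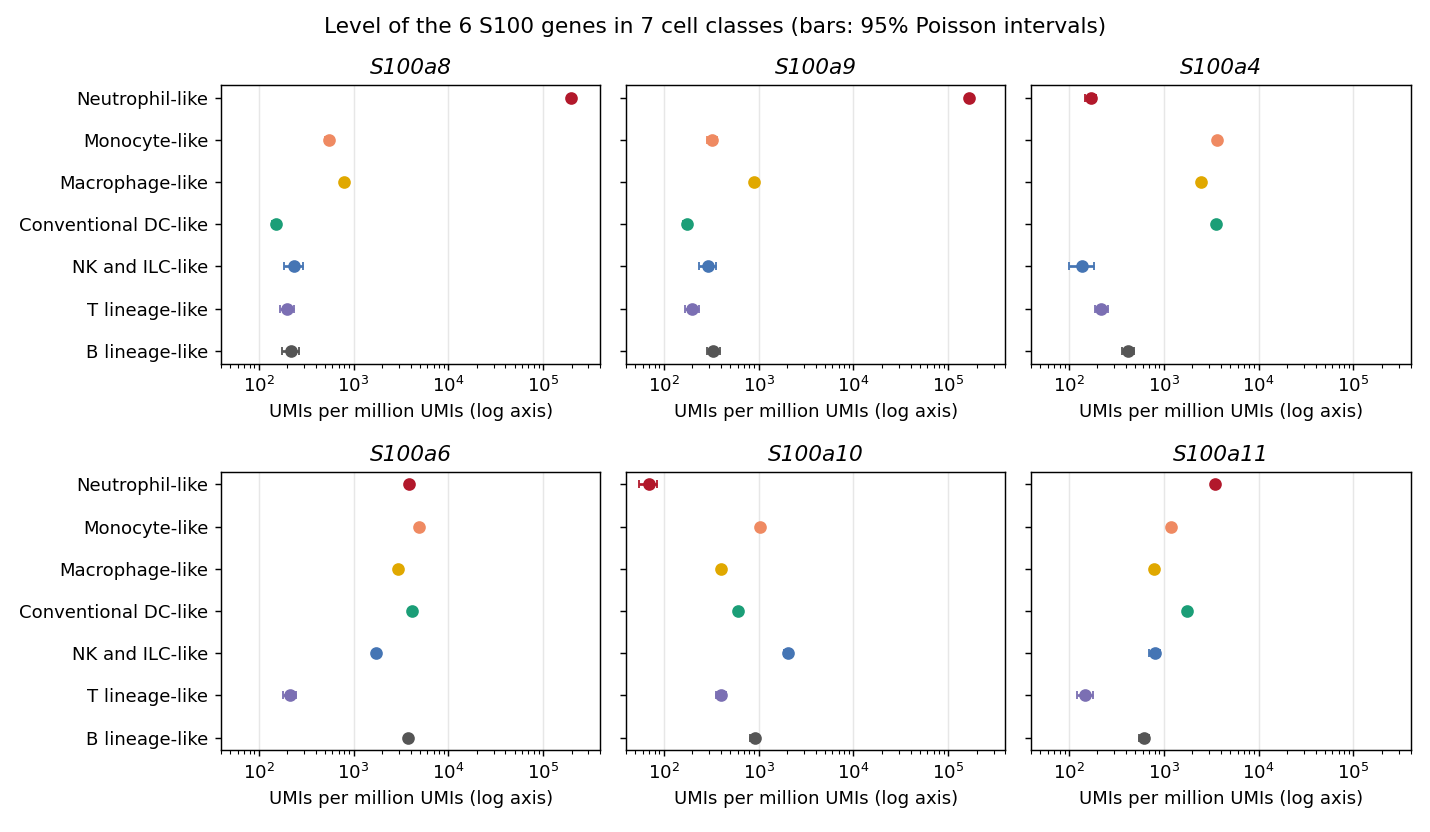
Level of each S100 gene in 7 cell classes of the 2021 library, in CPM on a log axis; points are class sums and bars are exact Poisson 95% intervals. S100a8 and S100a9 stand at 195932 and 167246 CPM in neutrophil-like cells and at most at 802 and 898 CPM in the other 6 classes drawn, while S100a4 and S100a10 are among their lowest levels there.

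S100a4 was a gene of the mononuclear phagocytes. It stood at 3666 CPM in monocyte-like cells and 3590 CPM in DC-like cells, whose intervals overlapped, and at 2474 CPM in macrophage-like cells. B lineage-like cells had 421 CPM. T lineage-like (219 CPM), neutrophil-like (169 CPM) and NK and ILC-like cells (136 CPM) were lowest, and each of these overlapped the next. A UMI of S100a4 was found in 92.2% of monocyte-like cells and in 8.3% of neutrophil-like cells.

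S100a6 was high in 4 classes at once. Monocyte-like cells had 4896 CPM, DC-like cells 4107 CPM, neutrophil-like cells 3847 CPM and B lineage-like cells 3729 CPM, the last 2 with overlapping intervals. Macrophage-like cells had 2953 CPM and NK and ILC-like cells 1724 CPM. T lineage-like cells, at 214 CPM, were 22.9-fold below monocyte-like cells.

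S100a10, the partner of annexin A2, had its highest level in NK and ILC-like cells, at 2023 CPM (1872 to 2181.9). Monocyte-like cells (1043 CPM) and B lineage-like cells (905 CPM) overlapped each other, and DC-like cells had 610 CPM. Macrophage-like (403 CPM) and T lineage-like cells (402 CPM) overlapped too. Neutrophil-like cells were lowest at 69.0 CPM, 29.3-fold below NK and ILC-like cells. S100a11 had the opposite end of the order: neutrophil-like cells had 3481 CPM, DC-like cells 1755 CPM, monocyte-like cells 1181 CPM, NK and ILC-like cells 800 CPM, macrophage-like cells 794 CPM, B lineage-like cells 619 CPM and T lineage-like cells 148 CPM. Only the NK and ILC-like and macrophage-like values overlapped.

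Set against all other kept cells, neutrophil-like cells had 3 of the 6 genes higher and 2 lower by a log2 ratio past 1, with 10 CPM added to both sides. Of 11126 genes with at least 15 UMIs, 4.86% were past this line upward and 20.6% downward. S100a8 and S100a9 led with log2 ratios of 8.20 and 8.31 (raw intervals 8.18 to 8.26 and 8.29 to 8.39), and S100a11 was at 1.53. S100a4 was at -3.85 and S100a10 at -3.25. S100a6 was at 0.20, within the line. The median of the 6 was 0.86, against -0.45 over all genes tested. These totals contain the S100 molecules themselves: the 6 genes made up 37.1% of neutrophil-like UMIs and at most 1.17% in any other named class. Median-of-ratios scaling moved the neutrophil-like values by 0.94 upward, gave 12.3% of genes past the line upward and 9.35% downward, and put S100a6 at 1.13.

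Single neutrophil-like cells varied widely. S100a8 had a median of 337.5 UMIs per cell and a highest value of 3305, and S100a9 a median of 291.5 and a highest value of 2817. Both genes together ranged from 0 to 6122 UMIs per cell, with a median of 620. They made up a median of 35.6% of a cell's UMIs and at most 57.8%. Across 206 cells thinned to 2000 UMIs, S100a8 and S100a9 had a Spearman correlation of 0.58, and S100a6 and S100a11 of 0.52, while S100a8 and S100a6 had -0.01. The 300 shallower cells were left out. Of the 206 cells, 195 belonged to the immature cluster described below and 11 to the mature one, so the values describe mainly deep immature cells. These are descriptions of cells that share 1 library.

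The neutrophil-like class held 2 clusters. The immature one (338 cells, median depth 2317.5 UMIs) was led by Camp, Ngp, Ltf and Lcn2, which encode proteins of neutrophil granules. The mature one (168 cells, 979.5 UMIs) was led by Cstdc4, Ifitm1, Retnlg and Stfa2l1, with Csf3r, the G-CSF receptor gene, also among its leading genes. Csf3r was raised in the immature cluster too, as were all 14 neutrophil markers. From a list of 6 mature neutrophil genes, 4 were raised in the immature and 6 in the mature cluster. From a list of 6 immature neutrophil genes, 6 and 1 were raised. Of the 6 S100 genes, 3 were higher and 1 lower in the mature cluster. Of 5160 genes tested, 13.5% were past the line upward and 14.8% downward.

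S100a6 had 10968 CPM in the mature and 2588 CPM in the immature cluster, a log2 ratio of 2.08 (raw interval 2.001 to 2.166). S100a11 had 7231 and 2817 CPM, a log2 ratio of 1.36 (raw interval 1.27 to 1.45). Mature cells had fewer UMIs in all, and the mean per cell was 12.5 against 8.30 UMIs for S100a6 and 8.26 against 9.04 UMIs for S100a11. S100a8 and S100a9 had log2 ratios of -0.54 and -0.25. Under 4 alternatives (no cell filter, 30 neighbours, no doublet removal and highest doublet scores removed), whose mature cluster held 96 to 109 cells, S100a8 was at -1.49 to -1.64 and S100a9 at -1.15 to -1.32. S100a4 went the other way, with 3 UMIs in the mature and 213 in the immature cluster, a raw log2 ratio of -3.65 (-5.94 to -2.08). The 213 UMIs came from 40 of 338 cells (11.8%), with up to 23 in a cell. With 10 CPM added to both sides the S100a4 log2 ratio was -3.01. That ratio was at -0.64 with the S100 family kept in the clustering and at -0.92 with the highest doublet scores removed, both within the line. The S100a6 and S100a11 ratios depended on where the clusters were divided and on scaling, with ranges over the alternatives of 0.94 to 2.21 and 0.88 to 1.44, and S100a6 was past the line in 9 of 11 alternatives and S100a11 in 7 of 11.

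S100a10 had 39 UMIs in the mature and 49 in the immature cluster, a log2 ratio of 1.95. The mature cluster held 24 cells with fewer than 10 S100a8 and S100a9 UMIs together, and those cells carried 33 of the 39 UMIs. All 6 mast cell and basophil markers were raised in that cluster, and 4 of its cells had at least 3 UMIs of such markers. With only cells of 10 or more S100a8 and S100a9 UMIs kept, the S100a10 ratio was -0.29.

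At the finer resolution of 1.0 the neutrophil-like cells fell into 3 clusters. The earliest by its genes (99 cells; Elane, Prtn3 and Mpo, which encode enzymes of primary granules) had 192700 CPM of S100a8 but 1019 CPM of S100a6, 1525 CPM of S100a11 and 329 CPM of S100a4. The cluster led by Ly6g, Mmp9 and Ltf (240 cells) had 220669 CPM of S100a8, 4522 CPM of S100a6, 4407 CPM of S100a11 and 43.2 CPM of S100a4. The mature cluster (168 cells) had 141068 CPM of S100a8, 10968 CPM of S100a6, 7231 CPM of S100a11 and 15.6 CPM of S100a4. In CPM, S100a6 and S100a11 were thus lowest in the earliest and highest in the mature cluster. S100a4 had the reverse order in CPM, and S100a8 was highest in the middle cluster. Per cell the S100a8 order was another one. The 99 earliest cells held 115875 S100a8 UMIs, the 240 middle cells 107214 and the 168 mature cells 27060. In UMIs per cell S100a8 was thus highest in the earliest and lowest in the mature cluster. In UMIs per cell S100a11 was not higher in the mature than in the immature cluster above (8.26 against 9.04), so its rise in CPM was not a rise per cell. Median depth fell from the earliest to the middle and the mature cluster, at 5878, 1859 and 979.5 UMIs. The ratio of S100a8 to S100a9 UMIs was 1.15 (1.14 to 1.16), 1.26 (1.25 to 1.27) and 0.98 (0.96 to 0.99) in that order.

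**Figure D2:**
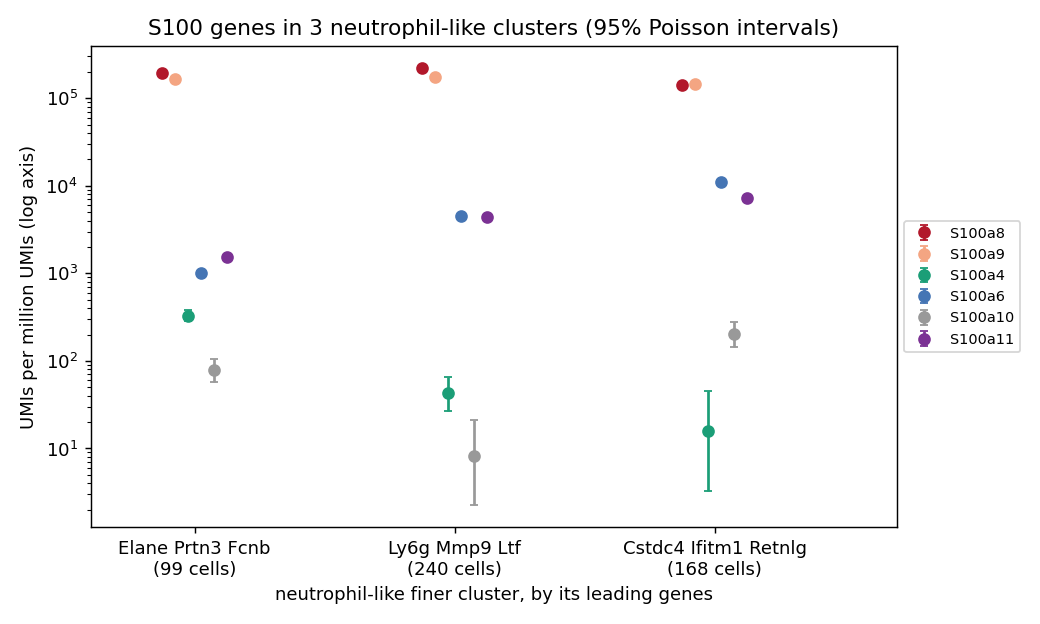
Level of the 6 genes in the 3 neutrophil-like clusters at the finer resolution, in CPM on a log axis with exact Poisson 95% intervals. From left to right S100a6 goes from 1019 to 10968 CPM and S100a11 from 1525 to 7231 CPM, while S100a4 goes from 329 to 15.6 CPM. The median depth falls in the same direction, at 5878, 1859 and 979.5 UMIs.

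Outside the neutrophil-like class, S100a8 and S100a9 UMIs were spread thinly over many cells and heavily over a few. Free RNA in a cell suspension can enter any droplet, and T, B and NK and ILC-like cells are the classes that should lack both genes. Among the 2569 cells of the other 6 named classes, 1361 had 0 UMIs of either gene, 1057 had 1 or 2, 106 had 3 or 4, 17 had 5 to 9 and 28 had 10 or more. Those 28 cells, 1.09% of the total, held 3093 of 4857 UMIs (63.7%). All but 3 of the 28 also had a UMI of another neutrophil marker. Such a UMI was common in other cells too: only 250 of 435 monocyte-like, 266 of 469 macrophage-like and 667 of 886 lymphoid-like cells had none. The markers include Csf3r, which stood at 28.5% of its neutrophil-like level in monocyte-like cells. The line of 10 UMIs was chosen after the values were seen.

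**Figure D3:**
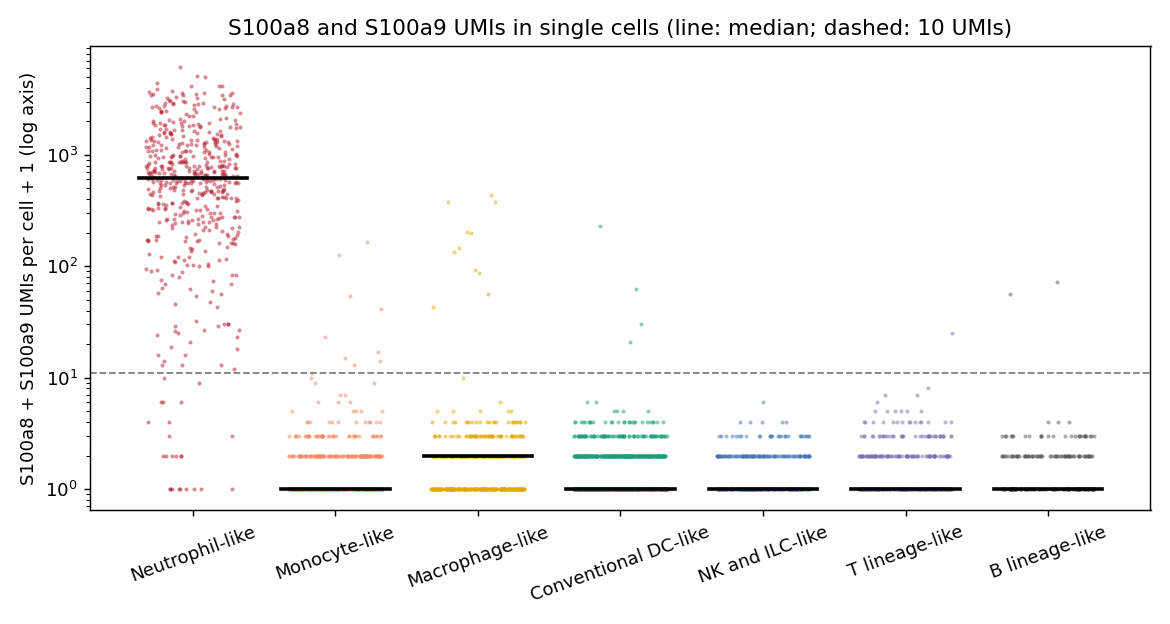
S100a8 and S100a9 UMIs together in each cell, plus 1, on a log axis for 7 classes; each point is a cell, the black line is the class median and the dashed line marks 10 UMIs. The neutrophil-like median is 620 UMIs, the other medians are 0 or 1, and 28 cells outside the neutrophil-like class reach 10.

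The share of cells with a UMI of either gene was lowest in T lineage-like cells, at 42.2% (exact binomial interval 37.1 to 47.4%), and highest in macrophage-like cells, at 51.2% (46.5 to 55.8%). Median depths ran from 980.5 UMIs in T lineage-like to 3307 UMIs in DC-like cells. In cells below 10 UMIs, the mean of both genes together was 0.74 UMIs per cell in monocyte-like, 0.78 in macrophage-like, 0.68 in DC-like, 0.58 in NK and ILC-like, 0.71 in T lineage-like and 0.60 in B lineage-like cells. Cells of the unnamed dividing cluster below 10 UMIs, the deepest at a median of 6063.5 UMIs, had a mean of 1.30 (1.08 to 1.55). Over the 6 named classes the means lay within 0.58 to 0.78, and the CPM in these cells was lowest where depth was highest: 201 CPM in DC-like and 528 CPM in NK and ILC-like cells.

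**Figure D4:**
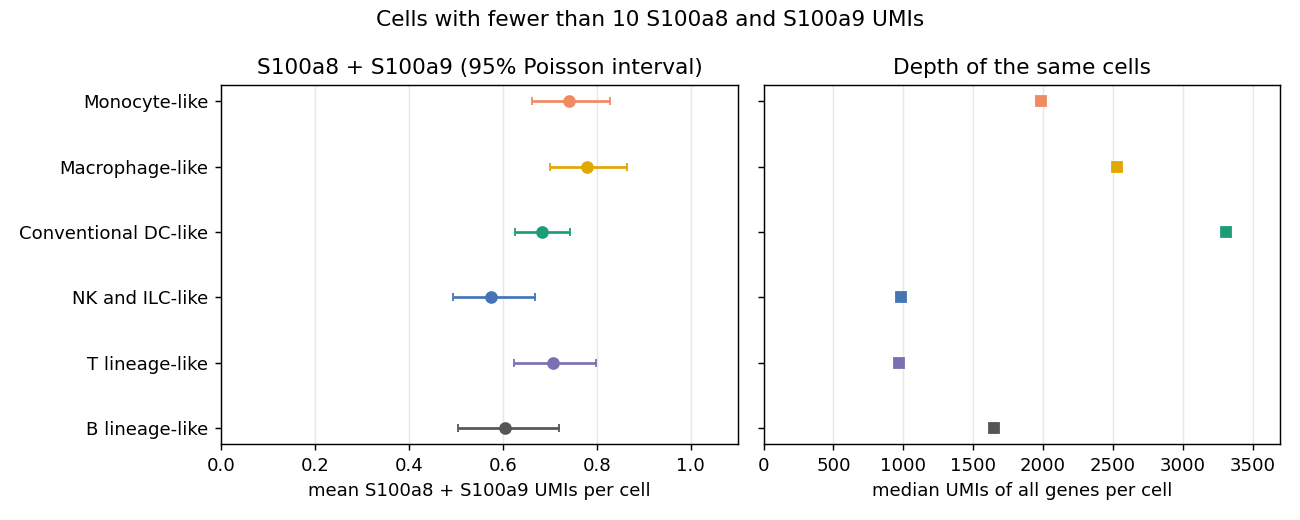
Left, mean S100a8 and S100a9 UMIs together per cell with Poisson 95% intervals, in cells with fewer than 10 of them; right, the median depth of the same cells in UMIs of all genes. The means lie between 0.58 and 0.78 UMIs in all 6 classes, while the depths range from 966 to 3307 UMIs.

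Depth was also compared within the 883 lymphoid-like cells (T, B and NK and ILC-like together) below 10 UMIs. Divided by depth into 3 equal parts with medians of 666, 1131.5 and 2327 UMIs, they had means of 0.57 (0.49 to 0.67), 0.52 (0.44 to 0.61) and 0.82 (0.72 to 0.93) UMIs per cell, and 837, 456 and 252 CPM. The mean was highest in the deepest part, whose interval overlapped neither of the others, while the CPM was lowest there. Over all 886 lymphoid-like cells, S100a8 stood at 0.11% of its neutrophil-like level and S100a9 at 0.16%. The 14 other neutrophil markers had a median of 0.19% there, and 10 of the 14 were under 1%, among them Camp (0.14%), Ngp (0.14%), Lcn2 (0.17%) and Retnlg (0.17%). The highest was Mxd1, at 9.0%. After thinning to 2000 UMIs, 69 of 193 lymphoid-like cells (35.8%) had a UMI of either gene, and 43.7% of all 886 did without thinning. The 693 shallower cells were left out of the thinned share.

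After thinning, DC-like cells had S100a8 and S100a9 at shares below those of lymphoid-like cells, with overlapping intervals. Thinned to 2000 UMIs, S100a8 was found in 16.7% of 693 DC-like cells (14.0 to 19.7%) and 18.7% of lymphoid-like cells (13.4 to 24.9%), and S100a9 in 19.6% (16.7 to 22.8%) and 23.3% (17.5 to 29.9%). Without thinning the DC-like shares were the higher ones, again with overlapping intervals. They were 27.0% against 24.3% for S100a8 and 30.3% against 28.0% for S100a9, at median depths of 3307 and 1131.5 UMIs. These DC-like shares, which overlap those of classes that should lack the genes, are not read as expression here. Thinned macrophage-like cells had S100a8 in 19.5% (15.3 to 24.2%) and S100a9 in 25.8% (21.2 to 30.9%) of 329 cells, which also overlapped the lymphoid-like shares.

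The macrophage-like class level of 802 and 898 CPM came from few cells. Its 11 cells with 10 or more UMIs held 85.7% of the UMIs, 1014 of S100a8 and 1121 of S100a9, and the same 11 cells held 243 UMIs of other neutrophil markers, with at least 1 in each. Over the whole class, 266 of 469 cells had no UMI of these markers. The part of neutrophil RNA or of doublets in these cells was not tested. The doublet caller marked 4 of 3188 cells (0.125%), too few to count as having worked.

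Monocyte-like cells had a higher share with S100a8, within overlapping intervals, and another ratio of the 2 genes. A UMI of S100a8 was found in 30.2% (24.2 to 36.8%) of 215 thinned cells, against 18.7% (13.4 to 24.9%) in lymphoid-like cells, intervals that overlap slightly. S100a9 was found in 20.5% (15.3 to 26.5%), at the lymphoid-like share. In cells below 10 UMIs the ratio of S100a8 to S100a9 UMIs was 1.40 (1.12 to 1.77) in monocyte-like cells, above the lymphoid-like interval at 0.87 (0.73 to 1.03). It was 0.83 (0.67 to 1.03) in macrophage-like and 0.81 (0.68 to 0.97) in DC-like cells. The monocyte-like ratio below 10 UMIs rests on 184 S100a8 and 131 S100a9 UMIs in 425 cells. Of these cells 8 had 5 to 9 UMIs, against 5 of 883 lymphoid-like cells. How far those 8 cells set the ratio was not tested. The neutrophil-like ratio, 1.17 (1.16 to 1.18), lay above the lymphoid-like one and inside the monocyte-like interval. It differed between the neutrophil-like clusters. The immature cluster had 1.20 (1.19 to 1.21), inside the monocyte-like interval, and the mature cluster 0.98 (0.96 to 0.99), inside the lymphoid-like one.

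Some cells had many S100a8 UMIs and few of S100a9. At least 10 S100a8 UMIs and at least 5 times as many as of S100a9 were found in 6 monocyte-like cells, 10 cells of the unnamed dividing cluster and 4 neutrophil-like cells, and in none of the other classes. The dividing cluster was led by histone and mitotic genes such as Hist1h2ae, Birc5 and Aurkb. It held 15 cells with 10 or more UMIs, with 96.6% of the cluster's S100a8 and S100a9 UMIs. The highest had 607 S100a8 and 371 S100a9 UMIs along with 118 UMIs of early granulocyte genes. A cell with 25 against 0 UMIs had 13 UMIs of early granulocyte genes and 29 of monocyte markers, and a cell with 21 against 0 had 0 and 54. At the finer resolution 56 cells of this cluster were named monocyte-like, with 6522 CPM of S100a8 and 3437 CPM of S100a9. Over the cluster the ratio was 1.85 (1.73 to 1.98).

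**Figure D5:**
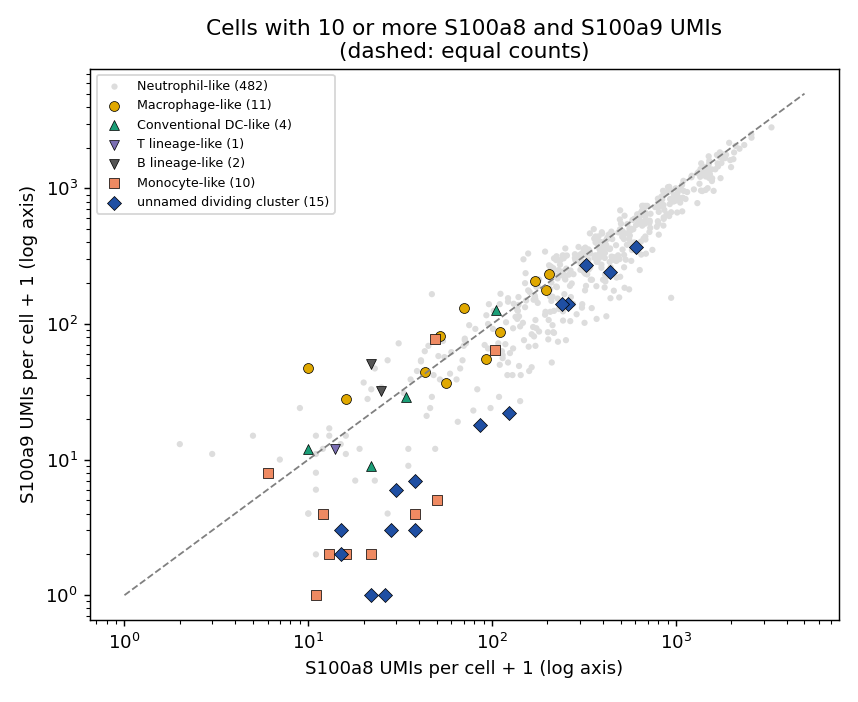
S100a8 against S100a9 UMIs, plus 1, on log axes in the cells with 10 or more of both together, with the number of cells per class in the legend; the dashed line marks equal counts. The 11 macrophage-like cells lie along the line, while 6 monocyte-like and 10 dividing cells lie far below it, with at least 5 times as many S100a8 as S100a9 UMIs.

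Monocyte-like cells had S100a10 higher than macrophage-like cells and S100a9 lower by a log2 ratio past 1, the other 4 genes lying within it. Of 8335 genes tested, 1.39% were past the line upward and 5.71% downward. S100a10 was at 1.35 (raw interval 1.22 to 1.52), S100a6 at 0.73, S100a11 at 0.57, S100a4 at 0.57, S100a8 at -0.55 and S100a9 at -1.46. The median of the 6 was 0.57, against -0.09 over all genes. The S100a8 and S100a9 directions rested on the few cells with many UMIs: with cells of 10 or more left out, S100a8 was at 0.83 and S100a9 at 0.12. Both changed sign in 6 of 12 alternatives, and S100a8 was past the line upward in 5 of these, at 1.22 to 2.11. S100a10 kept a ratio of 1.23 or more under every alternative run. Median-of-ratios scaling moved these values by 0.12 upward.

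The monocyte-like cells were divided after their values were seen into those with at least 2 UMIs of a Ly6c monocyte list and none of a nonclassical list (121 cells, median depth 2270 UMIs) and the reverse (96 cells, 1185.5 UMIs), with 8 cells near the limits. Of the 6 genes, 4 were higher in the Ly6c cells and 0 lower. Of 3328 genes tested, 8.5% were past the line upward and 14.3% downward. S100a10 had 427 UMIs (1472 CPM) in the Ly6c cells and 12 UMIs (94.4 CPM) in the nonclassical cells, a log2 ratio of 3.83 (raw interval 3.14 to 4.93). It was found in 77.7% of the former and 12.5% of the latter. S100a6 had 6042 against 1761 CPM, S100a4 4425 against 1612 CPM and S100a11 1458 against 684 CPM, with log2 ratios of 1.77, 1.45 and 1.08. S100a8 had 558 and 401 CPM, within the line. Of the 10 partner genes Anxa1, Anxa2 and Ahnak were past the line in the same direction, at 1.40, 1.11 and 1.34; Ahnak encodes a large scaffold protein that binds the S100A10 and annexin A2 complex.

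DC-like cells differed among themselves most in S100a10. The mature cluster (108 cells), led by Ccl22, Ccr7 and Fscn1, genes of migrating DCs, had 69.8 CPM of S100a10, and the other 671 DC-like cells had 679 CPM, a log2 ratio of -3.11 (raw interval -3.98 to -2.67). S100a6 was at -1.04, with 2123 and 4361 CPM, and S100a8 at -1.18 from 20 and 384 UMIs. Of the other DC-like cells, 4 held 167 of the 384 UMIs, and with cells of 10 or more S100a8 and S100a9 UMIs left out S100a8 was at -0.43, within the line. S100a6 was past the line in 5 of 10 alternatives, from -1.22 to -0.78. S100a4 and S100a11 lay within the line at 0.35 and 0.16. The count was thus 3 of 6 lower and 0 higher, beside 15.4% of 8218 genes downward and 7.58% upward. Median-of-ratios scaling moved these values by 0.26 upward and gave 12.4% downward and 10.4% upward, and S100a10 alone stayed past the line, at -2.88. Of the 10 partner genes 4 were also lower in the mature cluster and 1 was higher. Ahnak was at -2.25. Anxa1 had 2 against 299 UMIs, a raw log2 ratio of -4.26 (-7.31 to -2.39), and Anxa6 had 2 against 244 UMIs, at -3.97 (-7.02 to -2.10).

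At the finer resolution, S100a4 and S100a6 differed between the clusters that took up the other DC-like cells. A cluster led by Ccl17, Mmp12 and Epcam (383 cells, 372 of them from those cells) had 4445 CPM of S100a4 and 5336 CPM of S100a6. A cluster led by Cd209e and Cd209d (146 cells) had 3315 and 4078 CPM. A cluster led by Xcr1, a chemokine receptor gene of cross-presenting DCs, had 1726 and 1905 CPM; it was unnamed by the marker rule and mixed 101 of the DC-like cells with 52 of the dividing cluster. A cluster of 49 cells, named plasmacytoid DC-like by the marker rule, had 1545 and 3952 CPM, and 1166 CPM of S100a10. In it 6 of 6 plasmacytoid DC markers and 3 of 6 mast cell and basophil markers were raised. Its leading genes were Prg2, Prss34, Prg3 and Mcpt8, genes of eosinophils and basophils, with Siglech and Cox6a2 of plasmacytoid DCs also among them. Across 693 thinned DC-like cells, S100a4 and S100a6 had a Spearman correlation of 0.47.

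Macrophage-like cells held an iron-handling cluster (124 cells), led by Vcam1 and Gdf15 and with Slc40a1, the iron exporter gene, among its leading genes, and a larger cluster (345 cells) led by Ccl12 and Cfb. Both were mixed. At the finer resolution 40 of the 124 cells fell in an unnamed cluster led by Pf4 and Prg4. Of the 345 cells, 223 fell in a cluster named monocyte-like. S100a4 had 1140 CPM in the former and 2853 CPM in the latter, a log2 ratio of -1.32 (raw interval -1.48 to -1.17). S100a6 had 1408 and 3393 CPM, at -1.26 (raw interval -1.41 to -1.13). S100a11, S100a10, S100a8 and S100a9 were within the line, at -0.72, -0.47, -0.27 and -0.05. The count was 2 of 6 lower and 0 higher, beside 3.46% of 7362 genes downward and 8.6% upward; median-of-ratios scaling moved these values by 0.15 downward and gave 4.39% and 6.9%. S100a4 and S100a6 had a Spearman correlation of 0.62 across 329 thinned macrophage-like cells.

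T lineage-like cells were the lowest class in S100a6 and S100a11, and their 2 clusters differed. A cluster of 91 cells led by Tnfrsf4, Trac and Icos, genes of T cells past the early stages, was set against a cluster of 279 cells led by Trbc2, Rag1 and Dntt, genes of developing thymocytes. S100a4 had 841 and 103 CPM, S100a6 664 and 129 CPM, S100a10 1222 and 249 CPM and S100a11 310 and 118 CPM. These rest on 95 and 62, 75 and 78, 138 and 150, and 35 and 71 UMIs in the same order. A UMI was found in 20.9%, 17.6%, 47.3% and 20.9% of cells of the Tnfrsf4 cluster. The shares were 5.4%, 8.6%, 30.5% and 11.8% in the Rag1 cluster. The median was 0 UMIs per cell for each of these genes in both clusters. The log2 ratios were 2.92, 2.27, 2.25 and 1.32, and S100a8 and S100a9 were within the line. At the finer resolution the Rag1 cluster fell mainly into 145 cells with raised cell cycle genes and 128 without, which had 178 and 390 CPM of S100a10. The count was 4 of 6 higher and 0 lower, beside 5.63% of 5935 genes upward and 24.2% downward. Median-of-ratios scaling moved these values by 0.32 upward and gave 8.98% and 18.3%. Ahnak was at 2.03 in the same comparison. Anxa2 went the other way, with 3 against 272 UMIs, a raw log2 ratio of -4.09 (-6.37 to -2.52).

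B lineage-like cells, which included immunoglobulin-secreting cells by Jchain and Mzb1, were split in S100a6. No UMI of S100a6 was found in 127 of 212 cells, and 47 cells with 10 or more UMIs held 93.3% of the class's S100a6 UMIs, up to 86 in a cell. The median depth was 2441 UMIs in those 47 cells and 1444 UMIs in the others, and 9 cells had 8 to 12 UMIs, near the line. S100a6 was found in 15 of 28 cells with at least 5 UMIs of a plasma cell gene list and in 70 of the other 184. Its level was 2676 CPM in the former and 4115 CPM in the latter. This division was not planned beforehand, and 53 cells were near its limit. S100a6 and S100a10 had a Spearman correlation of 0.60 across 84 thinned cells. In NK and ILC-like cells S100a10 was found in 81.2% of cells at a median depth of 983.5 UMIs, with at most 12 UMIs in a cell.

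Among the 7 receptor genes listed for S100A8 and S100A9, only Bsg, Cd14 and Ly96 reached 50 CPM in a class. Cd14, the co-receptor of TLR4, had 177 CPM in monocyte-like, 108 CPM in macrophage-like and 80.7 CPM in neutrophil-like cells. Bsg, which encodes basigin, had 76.0 CPM in neutrophil-like cells and up to 220 CPM, in macrophage-like cells. Ly96, which encodes the TLR4 partner MD-2, was highest at 76.4 CPM in macrophage-like cells. Tlr4 stayed at or below 23.9 CPM and Ager, the gene of the receptor RAGE, at or below 3.02 CPM. Of the 6 receptor genes with enough UMIs, 0 were higher and 1 (Bsg) was lower in neutrophil-like cells than in all others, beside 4.86% and 20.6% over all genes, with a median log2 ratio of -0.09. With median-of-ratios scaling 2 were higher (Cd14 at 1.35 and Mcam at 1.25) and 0 lower, beside 12.3% and 9.35%.

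The annexin partners differed in the same cells. Anxa1, the partner of S100A11, had 1942 CPM in neutrophil-like cells and at most 261 CPM in the other named classes. Anxa2, the partner of S100A10, had 869 CPM in monocyte-like and 755 CPM in NK and ILC-like cells, and Ahnak had 1120 CPM in NK and ILC-like and 793 CPM in monocyte-like cells. Neutrophil-like cells had 479 CPM of Anxa2 and 36.8 CPM of Ahnak. Against all other cells, 2 of the 10 partner genes were higher in neutrophil-like cells (Anxa1 at 3.92 and Anxa11 at 1.73) and 5 lower, beside 4.86% and 20.6% over all genes, with a median log2 ratio of -0.72. With median-of-ratios scaling 3 were higher, Myh9 joining at 1.67, and 3 lower (Anxa4, Anxa5 and Ahnak), with a median of 0.12.

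Across the 12 clusters and 3104 candidate genes, the gene most like S100a8 was S100a9, with a Pearson correlation of 0.99 in log2 CPM, followed by Mmp8, Lcn2, Wfdc21 and Hk3. S100a9 was followed by Mmp9, Wfdc21, Lcn2 and Mmp8 after S100a8. S100a4 was most like Ass1 (0.93), Dnajb14, Batf3, BC028528 and Lamtor5, and S100a10 most like Itgb7 (0.93), Trappc4, Anxa6, Arl6ip5 and Smim11. S100a6 was most like Gadd45g (0.88), S100a11 (0.86), Aldoa, Ncf4 and Snx20, and S100a11 most like Arpc5 (0.87), S100a6, Lcp1, Skap2 and Mcemp1. S100a4 and S100a6, neighbours on the chromosome, had a correlation of 0.13, and S100a10 and S100a11 had -0.34. These correlations are over clusters of 1 library that share free RNA and differ in depth. S100a8 stood at 205637 and 141068 CPM in the 2 neutrophil-like clusters and at 66.4 to 3368 CPM in all others. Those 2 clusters thus weigh most in the correlations of S100a8.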

How the data were processed

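Single-cell RNA was measured with 10x Chromium 3′ chemistry, per the labels' protocols. The deposited values are unnormalised UMI counts, 1 for each gene in each barcode. Per the file headers, they were made with Cell Ranger 6.0.0 (2021) and 8.0.0 (2024), and per the submitters' processing notes on mm10. The annotation and the setting for intronic reads are not given in the sources used here. A list of gene names or barcodes of the 2024 library was not used here, so it gives depth only and shared barcodes were not counted. With 1 library carrying gene names there are no replicates.

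Barcodes needed 500 UMIs and 300 detected genes, with no more than 10% of UMIs mitochondrial (3188 of 3214). Scrublet in scanpy 1.11.5 marked 4 cells at its own threshold of 0.520, and they were removed. With S100 family rows left out, 2000 variable genes, 30 components and 15 neighbours gave Leiden clusters (igraph 0.11.9) at resolution 0.5, and 1.0 for the finer clusters. Clusters took a class name when 3 or more of its markers were raised and its markers were not outnumbered by another class's in the 10 leading genes. Names are rebuilt here and may differ from those of the study. Class values are summed counts as CPM with exact Poisson intervals, shares have exact binomial (Clopper-Pearson) intervals, and log2 ratios have 10 CPM added and an exact conditional interval of the raw ratio. For shares, cells were thinned to 2000 UMIs. A gene counted as past the line at a log2 ratio of 1. The calculations were tested on simulated data. They ran in Python 3.11.15 with scipy 1.17.1 and numpy 2.4.6.

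The text names the 6 genes, other family rows with a UMI, receptor and partner genes of at least 50 CPM in a class, and for each of the 6 the 5 genes most like it among those with at least 300 UMIs. Other names, such as list genes past the line and leading genes of clusters, were chosen after their values were seen. The 6 genes and the lists were chosen with earlier results of these data known. The alternatives were cell filters, clustering settings, doublet removal, thinning, the CPM base, the added CPM, scaling and the removal of cells with neutrophil or basophil markers. Counts from PCR-copied molecules were collapsed by UMI, and all intervals cover counting error only.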

Additional observations from a re-analysis of the deposited data

How the results depend on the processing

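No paired analysis was possible because gene values came from 1 library, and leaving out a library gives no value. Of 216 comparisons of 21 results with 16 alternatives, 3 of them chosen after seeing the data, 128 stayed within the interval of the reported value (counts within 1.5 times), 75 moved outside it and 13 reversed. The mature to immature log2 ratios of S100a6 and S100a11 were 0.94 and 0.90 with no cell filter, 1.04 and 0.95 with 30 neighbours, 1.02 and 0.94 with no doublet removal, 0.95 and 0.88 with the highest doublet scores removed, and 1.91 and 1.18 with CPM taken without the 6 genes. S100a6 was at 1.995 with median-of-ratios scaling and 2.21 with only neutrophil-like cells of 10 or more S100a8 and S100a9 UMIs, where S100a10 reversed to -0.29. A stricter filter left no mature cluster. S100a8 and S100a9 in neutrophil-like cells were at 208444 and 176606 CPM with the stricter filter (ratio 1.18), 194389 and 166113 with no doublet removal, 208566 and 177357 with the highest doublet scores removed, and 311371 and 265783 without the 6 genes in the total.

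Monocyte-like over macrophage-like cells, S100a8 and S100a9 reversed to 1.62 and 0.51 with the S100 family kept in the clustering, 2.11 and 1.22 at resolution 1.0, 1.22 and 0.27 with 30 neighbours, 1.63 and 0.37 with the highest doublet scores removed, 1.34 and 0.097 without cells holding other neutrophil marker UMIs, and 0.83 and 0.12 without cells of 10 or more S100a8 and S100a9 UMIs. S100a10 was at 1.61 at resolution 1.0 and 2.06 with the highest doublet scores removed. The number of the 6 genes past the line went from 2 to 6 at resolution 1.0, 5 with the highest doublet scores removed, and 1 with no cell filter, with no doublet removal and without cells of 10 or more UMIs. At resolution 1.0 a cluster of 228 cells led by Cxcl9 and Ly6i was named monocyte-like, and 193 cells in place of 469 were macrophage-like. The cause of the other moves was not tested. The lymphoid-like share was 43.7% without thinning. The thinned share rests on 193 cells, and a level near 1 UMI per cell cannot be told from background at this depth.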
